A study of Homo sapiens with 8 samples.

Results

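The 10 genes described here are the amyloid precursor protein gene APP, its relatives APLP1 and APLP2, the beta-site proteases BACE1 and BACE2, and 5 genes for proteins that bind, sort or modify this family (SORL1, APBB1, APBA2, ITM2B and APOE). They were taken by symbol from the 52719 genes to which the transcripts of the deposited table could be assigned, and the abundances of the transcripts of each gene were summed. SH-SY5Y is a neuroblastoma cell line with noradrenergic, neuron-like features. One group of 4 libraries (replicates 21 to 24) came from cells differentiated with 1 µM 9-cis retinoic acid, a ligand of retinoic acid and retinoid X receptors, for 7 days. The other 4 libraries (replicates 17 to 20) came from undifferentiated cells. Both groups grew in DMEM/F12 with foetal calf serum, penicillin and streptomycin. Neither the origin of the replicates (separate cultures or not) nor the time that undifferentiated cells were kept is recorded, so the p-values rest on a spread among libraries that may be technical only.

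APP is a membrane protein that is cut in its outer part by an alpha-secretase of the ADAM family or by the beta-secretase BACE1, and then within the membrane by the gamma-secretase complex. The beta cut followed by the gamma cut releases amyloid beta, the peptide of the plaques of Alzheimer disease, whereas the alpha cut falls inside the amyloid beta sequence and prevents its formation. APLP1 and APLP2 are processed in similar ways but do not contain the amyloid beta sequence.

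Levels are given in TPM, a unit of transcript abundance that corrects for transcript length and expresses each transcript as a share of its library, so that levels can be compared between genes. A gene was tested when its mean over the 8 libraries was 1 TPM or more, and was called changed when limma's adjusted p on log2(TPM + 1) was under 0.05. Fold changes on this scale understate the change of genes near 0. Of the 17077 tested genes, 51.3% were called, 5791 (33.9%) higher and 2970 (17.4%) lower in differentiated cells, and that split was 4529 higher and 4461 lower after median-of-ratios scaling and 4206 higher and 5061 lower after quantile normalization. The median log2 fold change of all tested genes was 0.10, against -0.02 and -0.06 under those scalings. The noradrenergic markers summed to 1539 to 1770 TPM in differentiated libraries, against 2259 to 2340 TPM in undifferentiated libraries. Of 9 tested markers 6 were lower and 1 was higher, PHOX2A, which averaged 427 TPM in differentiated cells and 224 TPM in undifferentiated cells. TH, the enzyme that starts catecholamine synthesis, stood at 0.14 TPM or less in every library. The mesenchymal-type markers summed to 1319 to 1429 TPM in differentiated libraries, against 395 to 430 TPM in undifferentiated libraries, with 6 of 9 tested markers higher. The largest were VIM, averaging 553 TPM in differentiated and 201 TPM in undifferentiated cells, and COL3A1, averaging 472 and 43.6 TPM. DCN, LUM and PDGFRB were not called, and COL1A2 was at 0.17 TPM or less in every library. In bulk RNA, fewer cells of a type and less RNA per cell cannot be told apart. Lane 7 held undifferentiated replicates 17 and 18, and lane 8 held the remaining 6 libraries. Differentiated replicate 22 stood apart from its group: its genes with a mean transcript length above 4000 bases lay at a median of -0.31 from the mean of the other 3 libraries of the group on the log2 scale, against 0.24, -0.04 and 0.12 in replicates 21, 23 and 24. The same medians in undifferentiated replicates 17 to 20 were -0.0079, 0.0195, -0.0185 and 0.0048, a narrower spread than in the differentiated group.

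Of the 10 genes, 9 were tested and BACE2 was below 1 TPM on average. APP, APLP1, APLP2, APOE, APBB1 and ITM2B were higher in differentiated cells (6 of 9, against 33.9% of all tested genes), APBA2 was lower (1 of 9, against 17.4%), and BACE1 and SORL1 were not called. The libraries of both groups did not overlap for 7 of the 9, against 49.6% of all tested genes. APP, APLP2 and APOE were called and raised by 1 or more on the log2 scale, which 8.84% of all tested genes were. The median log2 fold change of the 9 genes was 0.57. It was 0.44 after median-of-ratios scaling and 0.44 after quantile normalization.

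**Figure D1:**
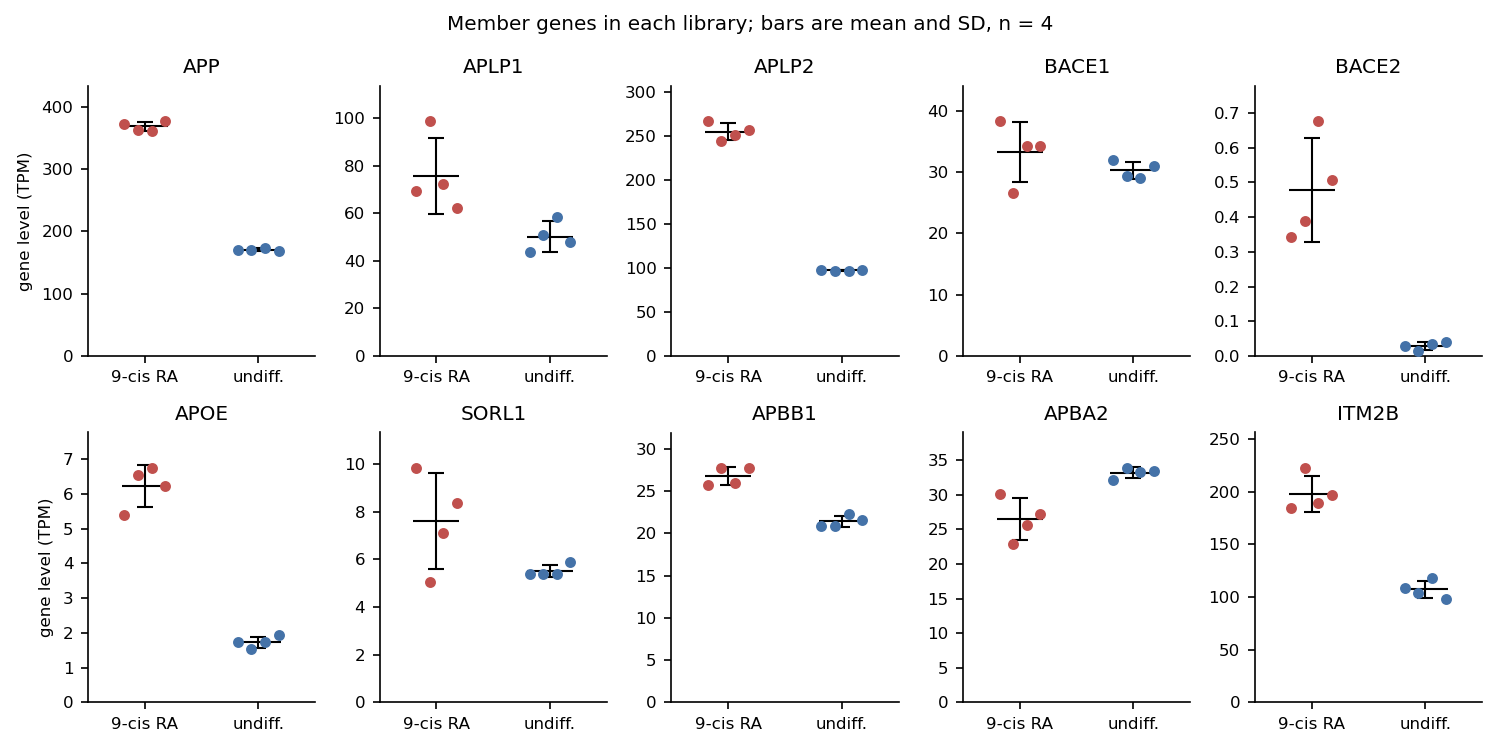
Level of each of the 10 genes (TPM) in every library, differentiated (9-cis RA, red) beside undifferentiated (blue). Points are libraries, the bars give the mean and SD of 4. APP, APLP2, APOE and ITM2B show the groups far apart, while BACE1 and SORL1 overlap.

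APP was the most abundant of the 10 genes in both groups. It measured 373, 363, 362 and 377 TPM in differentiated replicates 21 to 24, against 170.0, 170.0, 174 and 169 TPM in undifferentiated replicates 17 to 20. Every differentiated library lay above every undifferentiated one, and within each group the libraries lay close together. The means were 369 ± 7.45 TPM in differentiated cells and 171 ± 2.35 TPM in undifferentiated cells (SD, n = 4 each), 2.16-fold higher. The log2 fold change was 1.11 ± 0.03 (SE; limma adjusted p = 4.43e-08), and it lay between 0.98 and 1.12 under 17 alternative settings, all of which called it.

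APLP2 (chr11:130068147-130144811, plus strand), the more widely expressed of the relatives, showed a larger difference. It had 267, 244, 251 and 257 TPM in differentiated replicates 21 to 24, against 97.3, 96.6, 96.7 and 98.1 TPM in undifferentiated replicates 17 to 20. The means of 255 ± 9.65 TPM in differentiated cells and 97.2 ± 0.663 TPM in undifferentiated cells (SD, n = 4 each) correspond to a 2.62-fold higher level (log2 fold change 1.38 ± 0.04 SE, limma adjusted p = 3.72e-08). APLP1, whose expression is largely confined to the nervous system, differed less. It had 69.4, 98.7, 72.3 and 62.0 TPM in differentiated replicates 21 to 24, against 43.6, 50.8, 58.6 and 47.7 TPM in undifferentiated replicates 17 to 20. The groups did not overlap, but replicate 22 was well above the other differentiated libraries, and the log2 fold change was 0.57 ± 0.15 (SE; limma adjusted p = 0.0118). The call for APLP1 was lost after median-of-ratios scaling (0.44, limma adjusted p = 0.088) and within lane 8 (0.49, limma adjusted p = 0.102), in a range of 0.000887 to 0.102 over the alternatives.

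Together the 3 genes summed to 686 to 710 TPM in differentiated libraries, against 311 to 329 TPM in undifferentiated libraries. APP made up 52.8% ± 1.11 of the sum in differentiated cells and 53.7% ± 0.756 in undifferentiated cells (SD, n = 4 each), and the groups overlapped. APLP2 made up 36.4% ± 1.31 in differentiated cells and 30.6% ± 0.891 in undifferentiated cells, with no overlap. APLP1 made up 10.8% ± 2.22 in differentiated cells and 15.7% ± 1.59 in undifferentiated cells, and here the highest differentiated library (13.98%) lay just under the lowest undifferentiated library (14.02%). These shares were not tested.

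The APP gene lies on the minus strand at chr21:25880550-26171128 (GRCh38, GENCODE 29) and has 18 coding exons in its longest message. Exon 7 encodes a Kunitz-type protease inhibitor domain and exon 8 a short stretch related to the OX-2 antigen. The message for 770 residues (APP-201) holds both, the message for 751 residues (APP-204) lacks exon 8, and the message for 695 residues (APP-202), the main form in neurons, lacks both. APLP2 has a Kunitz exon too, at chr11:130123612-130123779 on the plus strand, of the same 168 bases as that of APP at chr21:26000015-26000182. Both exons are shown because the choice of this exon sets the Kunitz domain in either protein, and capitals mark the 109 positions (64.9%) at which they are identical when laid side by side without gaps.
APP exon 7: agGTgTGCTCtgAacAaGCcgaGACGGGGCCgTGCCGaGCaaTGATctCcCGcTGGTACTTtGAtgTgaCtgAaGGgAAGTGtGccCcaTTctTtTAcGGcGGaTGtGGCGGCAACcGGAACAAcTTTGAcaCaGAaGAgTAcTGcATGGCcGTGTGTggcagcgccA
APLP2 exon 7: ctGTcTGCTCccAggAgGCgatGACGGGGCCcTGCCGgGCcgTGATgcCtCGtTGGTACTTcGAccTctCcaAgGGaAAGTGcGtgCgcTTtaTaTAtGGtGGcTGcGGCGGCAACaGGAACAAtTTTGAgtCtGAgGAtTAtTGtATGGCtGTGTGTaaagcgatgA

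The APP messages differ around exon 8 (57 bases, chr21:25997360-25997416). The lines below give the join in each, with 24 bases on either side in lower case and exon 8 in capitals. APP-204 runs from exon 7 straight into exon 9, and APP-202 from exon 6.
APP-201: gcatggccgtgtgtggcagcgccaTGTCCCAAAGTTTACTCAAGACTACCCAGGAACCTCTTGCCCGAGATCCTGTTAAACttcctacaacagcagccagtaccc
APP-204: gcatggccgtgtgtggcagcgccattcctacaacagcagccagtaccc
APP-202: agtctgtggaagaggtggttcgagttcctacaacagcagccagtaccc

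**Figure D2:**
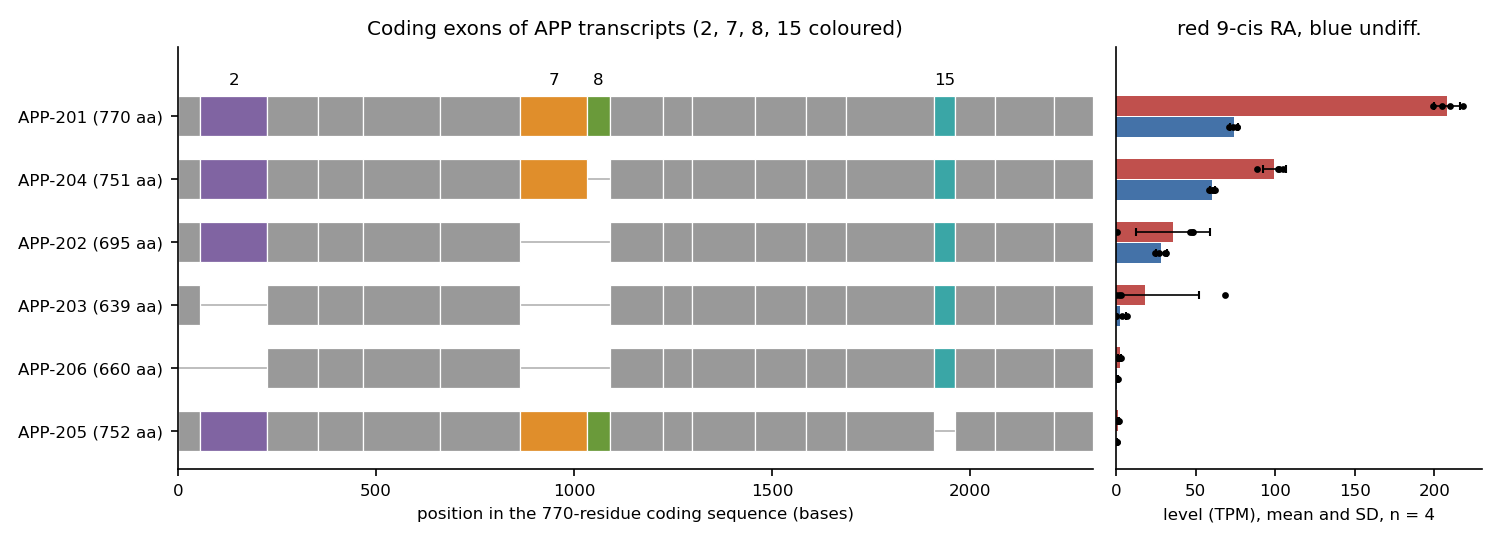
Coding exons of 6 APP messages drawn along the coding sequence of the 770-residue form (bases), with exons 2, 7, 8 and 15 in colour (coding bases outside these exons, as in APP-206, are not drawn), and beside them the level of each message (TPM, red differentiated, blue undifferentiated; bars are means with SD, points are libraries, n = 4). APP-201 averaged 208 TPM in differentiated cells and 74.1 TPM in undifferentiated cells, and APP-203 was high in a single differentiated library.

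Of the 17 APP transcripts in the table, those for 770, 751 and 695 residues had the highest mean levels. APP-201 had 210, 199, 205 and 218 TPM in differentiated replicates 21 to 24, against 73.6, 76.1, 75.9 and 70.8 TPM in undifferentiated replicates 17 to 20. APP-204 had 103, 88.9, 102 and 105 TPM in differentiated replicates 21 to 24, against 60.4, 58.7, 60.9 and 62.0 TPM in undifferentiated replicates 17 to 20. Both messages were higher in every differentiated library than in any undifferentiated one. APP-202 had 48.3, 0.666, 46.4 and 47.4 TPM in differentiated replicates 21 to 24, against 30.9, 31.2, 24.3 and 27.2 TPM in undifferentiated replicates 17 to 20. APP-203, a message for 639 residues that lacks exon 2 besides exons 7 and 8, had 3.32, 68.5, 2.11 and 0 TPM in differentiated replicates 21 to 24, against 0, 0, 7.14 and 3.46 TPM in undifferentiated replicates 17 to 20. In replicate 22 the estimate thus stood on APP-203, and in the other libraries on APP-202. The sum of both was 51.7, 69.2, 48.5 and 47.4 TPM in differentiated replicates 21 to 24, against 30.9, 31.2, 31.5 and 30.7 TPM in undifferentiated replicates 17 to 20. On the sum the groups did not overlap, and replicate 22 was the highest library. This sum was added after the data had been seen. Of the smaller messages, APP-206, which encodes 660 residues, stood at 0.963 to 3.31 TPM in differentiated libraries and at 0.436 to 1.07 TPM in undifferentiated libraries. APP-207, a partial coding model of 541 bases, had 3.15, 0, 0 and 0 TPM in differentiated replicates 21 to 24, against 2.01, 1.18, 2.03 and 1.98 TPM in undifferentiated replicates 17 to 20.

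Relative to all coding APP messages, the 770-residue form took a larger share in differentiated cells. APP-201 held 56.7%, 55.0%, 56.9% and 58.3% of coding APP TPM in differentiated replicates 21 to 24, against 43.8%, 45.2%, 44.1% and 42.4% in undifferentiated replicates 17 to 20. The means were 56.7% ± 1.33 in differentiated cells and 43.9% ± 1.13 in undifferentiated cells (SD, n = 4 each), and the groups lay far apart. The difference of 12.9 percentage points passed limma on arcsine square root shares over 12048 coding isoforms (adjusted p = 0.0152) and the minimum of 10 percentage points that was set for a call, which 3.3% of isoforms did. It was the 1 call among 15 isoforms tested in 6 of the 10 genes. That call was lost within lane 8 (13.5 points, limma adjusted p = 0.227) and without replicate 17, 18, 19, 20 or 23 (limma adjusted p = 0.0507 to 0.0595), in a range of 0.00907 to 0.227 over the alternatives, while the difference stayed between 12.3 and 13.5 points.

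The 751-residue form moved the other way in share. APP-204 held 27.1% ± 1.71 of coding APP TPM in differentiated cells and 35.8% ± 0.994 in undifferentiated cells (SD, n = 4 each). The groups did not overlap, and the difference of -8.70 percentage points had a limma adjusted p of 0.0465, a level reached by 3.91% of isoforms, but stayed under the 10 points set for a call. Its p was above 0.05 on the logit scale (limma adjusted p = 0.0589), within lane 8 (0.332) and without any 1 replicate other than 22 (0.071 to 0.135), in a range of 0.035 to 0.332 over the alternatives. APP-202 held 13.0%, 0.184%, 12.9% and 12.7% in differentiated replicates 21 to 24, against 18.4%, 18.5%, 14.1% and 16.3% in undifferentiated replicates 17 to 20. The difference of -7.16 points did not pass limma (adjusted p = 0.293). Summed with APP-203, the shares were 13.9%, 19.1%, 13.5% and 12.7% in differentiated replicates 21 to 24, against 18.4%, 18.5%, 18.3% and 18.4% in undifferentiated replicates 17 to 20, so that replicate 22 lay above all undifferentiated libraries and the other 3 differentiated libraries below them.

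**Figure D3:**
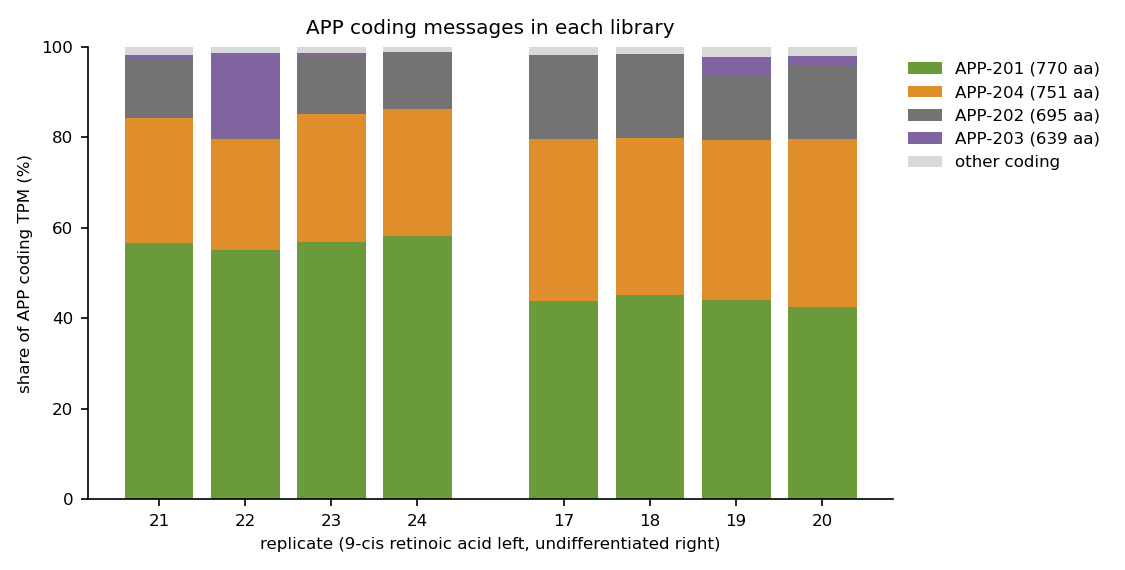
Share of coding APP TPM (%) taken by each message in every library, differentiated replicates on the left and undifferentiated replicates on the right. The 770-residue message (green) took 55.0% to 58.3% in differentiated libraries and 42.4% to 45.2% in undifferentiated libraries, and replicate 22 shows the 639-residue message (purple) in place of the 695-residue message (dark grey).

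Exon by exon, the share of coding APP TPM in messages with exon 8 was 57.3% ± 1.33 in differentiated cells and 45.04% ± 0.932 in undifferentiated cells (SD, n = 4 each), with no overlap. This share was added after the data had been seen and was not tested. The share with the Kunitz exon was 84.96%, 80.2%, 85.6% and 86.8% in differentiated replicates 21 to 24, against 80.1%, 80.4%, 79.9% and 80.0% in undifferentiated replicates 17 to 20. Replicate 22 fell among the undifferentiated libraries and the other 3 lay above them. The difference of 4.27 percentage points gave p = 0.0571 in an exact two-sided permutation test, 0.114 when adjusted over APP and APLP2, where the smallest p that 4 against 4 libraries allow is 0.0286. Without replicate 22 the difference was 5.67 points (exact permutation p = 0.0571, the smallest that 4 against 3 allow). Relative to all APP transcripts the difference was 4.596 points (exact permutation p = 0.0286, unadjusted). With complete coding sequences only it was 3.62 points (exact permutation p = 0.143). Within lane 8 it was 4.44 points (exact permutation p = 0.133, the smallest that 4 against 2 allow). The exact permutation p was 0.0571 without replicate 18 and 0.114 without any 1 replicate other than 18 and 22. In TPM, messages with the Kunitz exon summed to 310 ± 14.9 in differentiated cells and 135 ± 1.70 in undifferentiated cells, and coding messages without it to 57.2 ± 10.0 in differentiated cells and 33.6 ± 0.670 in undifferentiated cells (SD, n = 4 each). Both sums were higher in every differentiated library than in any undifferentiated one. Exon 2, which encodes part of the first extracellular domain, was in 80.3% of coding TPM in replicate 22 and in 97.8% to 99.2% in the other differentiated libraries, against 93.8% to 98.6% in undifferentiated libraries. Exon 15 was in 98.4% to 99.6% of coding TPM in every library.

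The share of coding APLP2 TPM with the Kunitz exon was lower on average in differentiated cells, and this did not pass the test. It was 61.3%, 73.6%, 63.0% and 61.2% in differentiated replicates 21 to 24, against 68.0%, 66.8%, 68.5% and 69.4% in undifferentiated replicates 17 to 20. The difference of -3.38 percentage points had p = 0.286 in the exact two-sided permutation test. Replicate 22 was the highest library of all and the other 3 differentiated libraries were the lowest, and without it the difference was -6.31 points (exact permutation p = 0.0571). Relative to all APLP2 transcripts the difference was 1.89 points with the opposite sign. The main APLP2 messages were APLP2-202 (761 residues), APLP2-210 (695 residues, without the Kunitz exon) and APLP2-201 (763 residues). APLP2-202 averaged 121 ± 13.99 TPM in differentiated cells and 39.6 ± 2.05 TPM in undifferentiated cells, and APLP2-210 averaged 82.1 ± 15.3 TPM in differentiated cells and 26.2 ± 0.903 TPM in undifferentiated cells (SD, n = 4 each). APLP2-201 held 13.2% ± 1.30 of coding APLP2 TPM in differentiated cells and 20.3% ± 1.30 in undifferentiated cells, a difference of -7.07 points (limma adjusted p = 0.048) that stayed under the 10 points set for a call. Its p was above 0.05 within lane 8 (limma adjusted p = 0.392) and without any 1 replicate other than 22 (0.0673 to 0.141), in a range of 0.0368 to 0.392 over the alternatives. For APLP1 (chr19:35867899-35879791, plus strand), the largest transcript was the processed transcript APLP1-210 without a coding sequence, at 16.7 to 36.8 TPM in differentiated libraries and 13.5 to 23.9 TPM in undifferentiated libraries, which overlap. The coding message APLP1-203 had 16.2 to 20.3 TPM in differentiated libraries and 12.8 to 14.99 TPM in undifferentiated libraries, with no overlap. APLP1-208, a model marked for nonsense-mediated decay, had 7.03 to 16.3 TPM in differentiated libraries and 8.06 to 8.99 TPM in undifferentiated libraries.

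BACE1 (chr11:117285207-117316259, minus strand), the beta-secretase of neurons, was not called. It had 38.3, 26.6, 34.3 and 34.2 TPM in differentiated replicates 21 to 24, against 31.9, 29.4, 28.99 and 31.1 TPM in undifferentiated replicates 17 to 20. Replicate 22 lay below all undifferentiated libraries and the other 3 above them. The log2 fold change was 0.12 ± 0.10 (SE; limma adjusted p = 0.359). Without replicate 22 BACE1 was called higher (0.22, limma adjusted p = 0.012), whereas after median-of-ratios scaling and after quantile normalization the fold change was -0.01 in both cases (over the 17 alternatives, limma adjusted p ranged over 0.012 to 0.948). BACE1 lies opposite RNF214 and CEP164. BACE1-AS, also opposite, and AP000892.2, on the same strand, overlap it too, but the matched transcripts held no values for them. RNF214 had 32.2, 19.9, 26.2 and 28.3 TPM in differentiated replicates 21 to 24, against 28.9, 32.6, 28.7 and 33.1 TPM in undifferentiated replicates 17 to 20. CEP164 was likewise lowest in replicate 22, at 24.2 TPM. The kit preserved strand per the labels, but whether counting used it is not given in the sources used here, so reads of these genes where they overlap may not be separated. Most of the BACE1 signal was on BACE1-202, a message for 401 residues, with 21.2 to 22.8 TPM in differentiated libraries and 18.1 to 19.3 TPM in undifferentiated libraries, which do not overlap. The message for 501 residues, the full-length enzyme, held 9.98% ± 3.07 of coding BACE1 TPM in differentiated cells and 7.14% ± 1.47 in undifferentiated cells (SD, n = 4 each), with overlap. BACE1-205, a partial coding model, had 2.29 to 6.88 TPM in differentiated libraries and 2.77 to 5.22 TPM in undifferentiated libraries.

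BACE2 (chr21:41167801-41282518, plus strand), a related protease that can cut APP within the amyloid beta sequence, was near the bottom of the range. It had 0.343, 0.388, 0.677 and 0.506 TPM in differentiated replicates 21 to 24, against 0.0286, 0.0128, 0.0335 and 0.0400 TPM in undifferentiated replicates 17 to 20. The groups did not overlap, and since the read depth is unknown the error of such low values cannot be stated. With no filter on low values limma gave a log2 fold change of 0.52 (adjusted p = 0.00077). The coding message BACE2-203 was at 0.065 TPM or less in all 8 libraries. Another coding message, for 396 residues, held 72.6% of coding BACE2 TPM in replicate 21 and 0% in every other library. The models without a coding sequence, BACE2-206 and BACE2-210, were at 0.403 TPM or less in differentiated libraries and listed at 0 in all undifferentiated libraries. Both were also at 0 in replicate 21.

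SORL1 (chr11:121452203-121633693, plus strand) encodes the sorting receptor SORLA, which binds APP and steers it away from the secretases. It had 9.85, 5.07, 7.11 and 8.36 TPM in differentiated replicates 21 to 24, against 5.38, 5.38, 5.39 and 5.90 TPM in undifferentiated replicates 17 to 20. Replicate 22 was the lowest of all 8 libraries and the other 3 differentiated libraries were above every undifferentiated one. The log2 fold change was 0.37 ± 0.16 (SE; limma adjusted p = 0.0951). Without replicate 22 it was 0.53 (limma adjusted p = 0.00339), and with protein-coding transcripts alone 0.43 (limma adjusted p = 0.0242), both called, in a range of 0.00339 to 0.326 over the alternatives. The mean transcript length, weighted by level, was 9333 bases for SORL1, 7965 bases for ITM2B and 4065 bases for BACE1, and of these SORL1 and BACE1 were lowest and ITM2B highest in replicate 22. The part of transcript length in these results was not tested. The full coding message SORL1-201 had 8.06, 4.40, 6.16 and 7.06 TPM in differentiated replicates 21 to 24, against 4.29, 4.55, 4.41 and 4.43 TPM in undifferentiated replicates 17 to 20.

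Both adaptors of the APP cytoplasmic tail among the 10 genes differed by small amounts, in opposite directions. APBB1 (chr11:6395124-6419414, minus strand) encodes FE65, which binds the intracellular domain of APP. It had 25.7, 27.7, 25.9 and 27.8 TPM in differentiated replicates 21 to 24, against 20.9, 20.9, 22.2 and 21.6 TPM in undifferentiated replicates 17 to 20. The groups did not overlap and the log2 fold change was 0.31 ± 0.05 (SE; limma adjusted p = 0.00078). The call was lost after median-of-ratios scaling (0.18, limma adjusted p = 0.0865) and quantile normalization (0.15, limma adjusted p = 0.119), in a range of 0.000673 to 0.119 over the alternatives. Its coding messages APBB1-201, with 5.92 to 11.9 TPM in differentiated libraries and 6.12 to 8.16 TPM in undifferentiated libraries, and APBB1-221, with 3.12 to 7.75 TPM in differentiated libraries and 4.82 to 7.31 TPM in undifferentiated libraries, each overlapped between groups. The transcript APBB1-205, which has no coding sequence, had 3.01 to 3.87 TPM in differentiated libraries and 1.77 to 3.03 TPM in undifferentiated libraries.

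APBA2 (chr15:28884483-29118315, plus strand) encodes X11-like, also called MINT2, an adaptor that binds APP and slows its processing. It had 30.2, 22.8, 25.6 and 27.2 TPM in differentiated replicates 21 to 24, against 32.1, 33.9, 33.3 and 33.4 TPM in undifferentiated replicates 17 to 20. Every differentiated library lay below every undifferentiated one, and the log2 fold change was -0.32 ± 0.08 (SE; limma adjusted p = 0.00935). The lower values lay in transcripts that retain an intron. APBA2-210 had 6.68, 1.86, 3.97 and 5.64 TPM in differentiated replicates 21 to 24, against 8.35, 8.94, 7.92 and 9.01 TPM in undifferentiated replicates 17 to 20. APBA2-201 had 4.04, 1.36, 2.61 and 3.22 TPM in differentiated replicates 21 to 24, against 4.35, 4.28, 4.49 and 4.38 TPM in undifferentiated replicates 17 to 20. Both transcripts with a retained intron were lower in every differentiated library and lowest in replicate 22. The coding message APBA2-202 averaged 12.3 ± 1.17 TPM in differentiated cells and 12.7 ± 1.04 TPM in undifferentiated cells, and APBA2-204 averaged 4.17 ± 0.403 TPM in differentiated cells and 3.39 ± 0.921 TPM in undifferentiated cells (SD, n = 4 each), with overlap in each. With protein-coding transcripts alone the log2 fold change of APBA2 was -0.08 and was not called (limma adjusted p = 0.183), and within lane 8 it was -0.33 and was not called (limma adjusted p = 0.0684), in a range of 4.94e-05 to 0.183 over the alternatives.

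**Figure D4:**
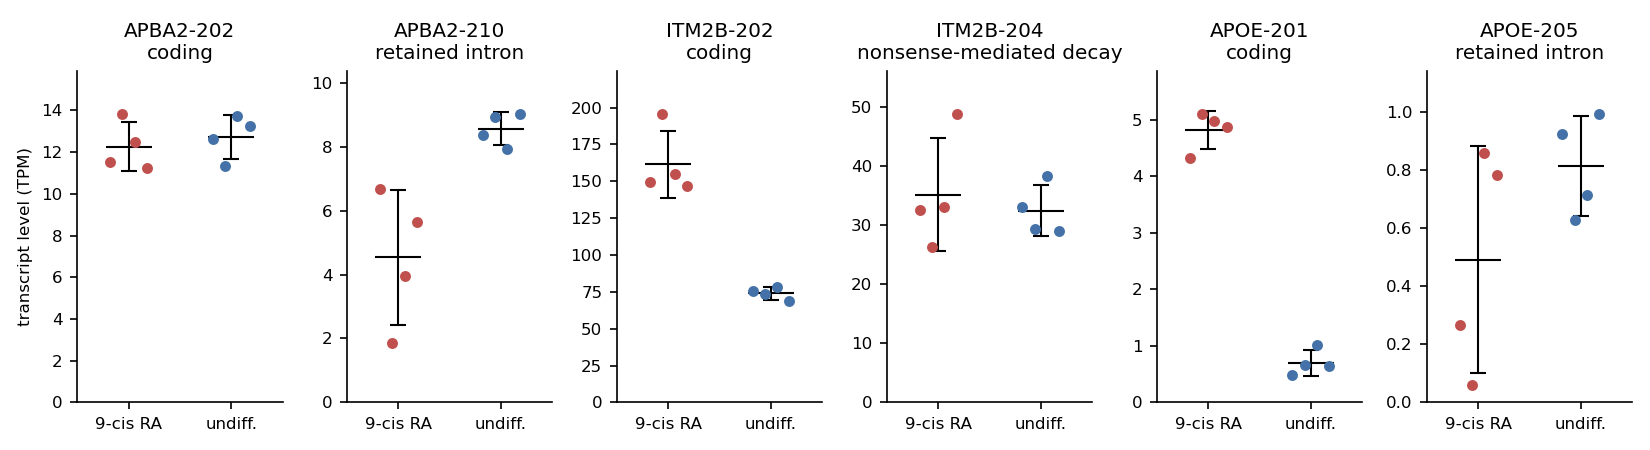
Levels (TPM) of a coding transcript and a transcript without a full coding sequence of APBA2, ITM2B and APOE, differentiated (red) beside undifferentiated (blue), with mean and SD of 4 libraries. APBA2-202 overlaps between groups while APBA2-210 is lower in every differentiated library, and ITM2B-202 and APOE-201 are higher in every differentiated library while ITM2B-204 and APOE-205 overlap.

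ITM2B (chr13:48232612-48270357, plus strand) encodes BRI2, a membrane protein that binds APP and hinders its cleavage, and whose inherited variants cause familial dementias. It had 184, 223, 189 and 196 TPM in differentiated replicates 21 to 24, against 109, 104, 118 and 98.2 TPM in undifferentiated replicates 17 to 20. The groups lay far apart, at 1.85-fold, with a log2 fold change of 0.88 ± 0.08 (SE; limma adjusted p = 2.56e-05). The difference was in the coding message ITM2B-202, with 150, 195, 155 and 147 TPM in differentiated replicates 21 to 24, against 75.5, 73.2, 78.5 and 68.7 TPM in undifferentiated replicates 17 to 20. ITM2B-204, a model marked for nonsense-mediated decay, had 26.3 to 48.8 TPM in differentiated libraries and 29.1 to 38.4 TPM in undifferentiated libraries, which overlap.

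APOE (chr19:44905754-44909393, plus strand) encodes apolipoprotein E, a lipid carrier made chiefly by glia that binds amyloid beta. It was low in both groups, with 5.39, 6.53, 6.75 and 6.23 TPM in differentiated replicates 21 to 24, against 1.73, 1.55, 1.73 and 1.93 TPM in undifferentiated replicates 17 to 20. The means were 6.22 ± 0.595 TPM in differentiated cells and 1.73 ± 0.156 TPM in undifferentiated cells (SD, n = 4 each), and the log2 fold change was 1.40 ± 0.09 (SE; limma adjusted p = 5.14e-06). The APOE fold change depended on the setting, from 0.74 with a pseudocount of 5 to 1.81 with protein-coding transcripts alone. All 16 alternatives that tested APOE called it, and the filter at a mean of 5 TPM left it out. The coding message APOE-201 had 4.32, 5.09, 4.97 and 4.87 TPM in differentiated replicates 21 to 24, against 0.477, 0.662, 1.01 and 0.646 TPM in undifferentiated replicates 17 to 20. APOE-205, which retains an intron, had 0.0588 to 0.859 TPM in differentiated libraries and 0.628 to 0.993 TPM in undifferentiated libraries, which overlap. Markers of cells that make APOE in the brain were measured beside it. The 6 astrocyte markers summed to 38.1 to 40.3 TPM in differentiated libraries, against 20.2 to 23.6 TPM in undifferentiated libraries, with GJA1 and S100B higher among 3 tested. The other tested marker, GFAP, overlapped between groups and was not called (log2 fold change -0.11, limma adjusted p = 0.737). ALDH1L1 also overlapped, at 0.535 to 1.21 TPM in differentiated libraries and 0.350 to 0.814 TPM in undifferentiated libraries. SLC1A3 and AQP4 were at 0.0561 TPM or less in all libraries. The 8 microglia and macrophage markers summed to 21.3 to 24.6 TPM in differentiated libraries, against 0.688 to 1.20 TPM in undifferentiated libraries, of which CD68, a lysosomal protein, had 19.3 to 23.3 TPM in differentiated libraries and 0.212 to 0.476 TPM in undifferentiated libraries. P2RY12, a receptor of microglia, had 0.804 to 1.04 TPM in differentiated libraries and 0.0262 to 0.165 TPM in undifferentiated libraries, with no overlap, and with no filter on low values 2 of the 8 markers were called higher. AIF1, TYROBP and ITGAM were at 0.102 TPM or less in all libraries. CSF1R, PTPRC and CX3CR1 each overlapped between groups. CSF1R had 0.00702 to 0.696 TPM in differentiated libraries and 0.0617 to 0.225 TPM in undifferentiated libraries. PTPRC had 0.156 to 0.609 TPM in differentiated libraries and 0.213 to 0.454 TPM in undifferentiated libraries, and CX3CR1 was at 0.083 TPM or less throughout. The epithelial markers summed to 13.7 to 18.3 TPM in differentiated libraries, against 2.31 to 3.75 TPM in undifferentiated libraries. Of these, KRT18 had 10.2 to 14.1 TPM in differentiated libraries and 0.138 to 0.312 TPM in undifferentiated libraries. KRT8 was also called higher, EPCAM was not called, and KRT19 overlapped between groups. KRT18, KRT8 and CD68, the 1 tested gene of its list, passed the filter on low values only through the differentiated libraries. Their means in undifferentiated cells were 0.262, 0.828 and 0.338 TPM in that order. CDH1 was lower, at 0.0753 to 0.159 TPM in differentiated libraries and 0.164 to 0.284 TPM in undifferentiated libraries, with no overlap. With no filter on low values, 2 of the 5 epithelial markers were called higher and 1 lower. Under that setting 6446 genes were called higher and 3157 lower over all genes. The oligodendrocyte and Schwann cell markers summed to 4.52 to 6.64 TPM in differentiated libraries, against 3.89 to 4.41 TPM in undifferentiated libraries, with SOX10 at 0 throughout. The part of these lists in the APOE result was not tested, nor was that of the noradrenergic and mesenchymal-type lists in any result.

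Around the 10 genes, 56 other genes of APP biology were counted by role, of which 50 were tested. Of these, 30 were higher, 3 lower and 17 not called, beside 33.9% higher and 17.4% lower of all tested genes, with a median log2 fold change of 0.38 against 0.10 for all tested genes. After median-of-ratios scaling 27 were called higher and 8 lower, beside 4529 higher and 4461 lower of all tested genes. After quantile normalization 28 were called higher and 10 lower, beside 4206 higher and 5061 lower of all tested genes.

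The 5 genes counted for the gamma-secretase complex, which makes the final cut, were all higher in differentiated cells, as were 33.9% of all tested genes (median log2 fold change 0.66). NCSTN, the substrate receptor nicastrin, averaged 123 ± 13.1 TPM in differentiated cells and 71.2 ± 2.15 TPM in undifferentiated cells (SD, n = 4 each; log2 fold change 0.77). The groups did not overlap for any of the 5, as for 49.6% of all tested genes. PSEN2, a catalytic subunit, had a log2 fold change of 0.62, PSENEN, a small accessory subunit, 0.69, APH1B 0.66, and APH1A, the more abundant of both scaffold subunits, 0.30, with limma adjusted p-values of 0.000838, 0.000363, 0.000296 and 0.0002 in that order. The APH1A call was lost after median-of-ratios scaling.

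Among 4 genes of the alpha-secretase group, which comprises membrane proteases of the ADAM family, 3 were higher and 1 was not called (median log2 fold change 0.81), beside 33.9% higher of all tested genes. ADAM9 averaged 57.3 ± 3.49 TPM in differentiated cells and 22.2 ± 1.44 TPM in undifferentiated cells, and ADAM19 averaged 9.06 ± 1.38 TPM in differentiated cells and 2.99 ± 0.116 TPM in undifferentiated cells (SD, n = 4 each), with log2 fold changes of 1.33 and 1.32. ADAM17, which also releases tumour necrosis factor, had a log2 fold change of 0.31 (limma adjusted p = 0.00781) and was not called within lane 8. ADAM10, the main alpha-secretase of neurons, had 54.6, 41.0, 45.8 and 52.7 TPM in differentiated replicates 21 to 24, against 38.3, 45.5, 39.1 and 39.7 TPM in undifferentiated replicates 17 to 20. Its groups overlapped and the log2 fold change of 0.24 did not pass limma (adjusted p = 0.0687), though it was called in 3 of 17 alternatives (without replicate 18, without replicate 22, and with protein-coding transcripts alone), in a range of 0.0102 to 0.19.

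The cytoplasmic adaptors, APBB1 and APBA2 included, held 4 higher and 2 lower among 10 tested genes, near the shares of all tested genes (33.9% higher, 17.4% lower). After median-of-ratios scaling, and after quantile normalization, 1 was called higher and 2 lower. Of all tested genes, 4529 were higher and 4461 lower under the former, and 4206 higher and 5061 lower under the latter. Their median log2 fold change was 0.13, and it was -0.0038 after median-of-ratios scaling and -0.02 after quantile normalization. APBB2, a relative of FE65, averaged 11.4 ± 2.60 TPM in differentiated cells and 21.6 ± 1.30 TPM in undifferentiated cells (SD, n = 4 each; log2 fold change -0.89, limma adjusted p = 0.00151), and APBB3, another relative, averaged 25.1 ± 3.22 TPM in differentiated cells and 16.8 ± 1.80 TPM in undifferentiated cells (0.55, limma adjusted p = 0.0032). These relatives of FE65 differed in direction, and both kept their calls in all 17 alternatives. MAPK8IP1, the kinesin-linked scaffold JIP1, was higher by 0.37 (limma adjusted p = 0.0123), and APBA3, of the X11 family, by 0.19 (limma adjusted p = 0.0441). MAPK8IP1 kept its call in 14 and APBA3 in 7 of 17 alternatives, and quantile normalization turned the APBA3 value to -0.03.

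Genes of sorting receptors, the retromer and BACE1 sorting, SORL1 included, held 4 higher, 1 lower and 8 not called among 13 tested. The share of higher calls was near the 33.9% of all tested genes, of which 17.4% were lower. Their median log2 fold change was -0.04 and their mean 0.10, which differ in sign, and without replicate 22 the median was 0.11. SORCS1, a relative of SORL1, averaged 81.0 ± 14.6 TPM in differentiated cells and 47.0 ± 1.39 TPM in undifferentiated cells (SD, n = 4 each; log2 fold change 0.75). RTN4, a reticulon that binds BACE1, had a log2 fold change of 0.50, and the retromer subunits VPS29 and VPS26B had 0.44 and -0.43. The VPS26B call was lost within lane 8. After median-of-ratios scaling 4 of this group were called higher and 4 lower, beside 4529 higher and 4461 lower of all tested genes. After quantile normalization 4 were called higher and 5 lower, beside 4206 higher and 5061 lower of all tested genes.

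Of the apolipoproteins and their receptors, APOE included, 7 of 9 tested genes were higher and 1 lower (median log2 fold change 0.95), beside 33.9% higher and 17.4% lower of all tested genes. CLU, the chaperone clusterin that binds amyloid beta, had 291, 372, 331 and 347 TPM in differentiated replicates 21 to 24, against 22.0, 16.4, 18.4 and 17.8 TPM in undifferentiated replicates 17 to 20. Every differentiated library lay above every undifferentiated one (log2 fold change 4.10 ± 0.10 SE, limma adjusted p = 2.87e-08). ABCA7, a lipid transporter, averaged 16.7 ± 2.66 TPM in differentiated cells and 5.58 ± 0.781 TPM in undifferentiated cells (SD, n = 4 each; log2 fold change 1.42). LRP1B, a large endocytic receptor, averaged 2.18 ± 0.185 TPM in differentiated cells and 0.0814 ± 0.025 TPM in undifferentiated cells (SD, n = 4 each), and passed the filter on low values only through the differentiated libraries. LRP8, the reelin and apolipoprotein E receptor ApoER2, was lower, at 15.4, 9.35, 13.0 and 16.1 TPM in differentiated replicates 21 to 24, against 25.1, 29.9, 25.6 and 25.9 TPM in undifferentiated replicates 17 to 20 (log2 fold change -0.96, limma adjusted p = 0.000988).

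In the BRI family and its convertases, ITM2B included, 4 of 6 tested genes were higher and 0 lower (median log2 fold change 0.63), beside 33.9% higher and 17.4% lower of all tested genes. ITM2A averaged 38.4 ± 2.02 TPM in differentiated cells and 9.18 ± 1.11 TPM in undifferentiated cells, and ITM2C averaged 165 ± 8.38 TPM in differentiated cells and 109 ± 3.30 TPM in undifferentiated cells (SD, n = 4 each). FURIN, the protease that matures BRI2, averaged 6.13 ± 0.547 TPM in differentiated cells and 3.46 ± 0.193 TPM in undifferentiated cells (SD, n = 4 each; log2 fold change 0.67, limma adjusted p = 0.000192). All 3 members of the BRI family were thus higher, with log2 fold changes of 1.96, 0.88 and 0.59 for ITM2A, ITM2B and ITM2C, and each stayed positive under both other scalings.

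Among proteases that degrade amyloid beta, 6 of 8 tested genes were higher and 0 lower (median log2 fold change 0.76), beside 33.9% higher and 17.4% lower of all tested genes. After median-of-ratios scaling, and after quantile normalization, 6 were called higher and 2 lower. Of all tested genes, 4529 were higher and 4461 lower under the former, and 4206 higher and 5061 lower under the latter. CTSB, the lysosomal protease cathepsin B, had 802, 622, 806 and 832 TPM in differentiated replicates 21 to 24, against 50.3, 44.3, 48.3 and 50.2 TPM in undifferentiated replicates 17 to 20 (log2 fold change 3.95 ± 0.10 SE, limma adjusted p = 2.62e-08). Its level in differentiated cells exceeded that of APP, whereas in undifferentiated cells it was below that of APP. MME, neprilysin, a cell surface enzyme that degrades amyloid beta, averaged 22.3 ± 4.51 TPM in differentiated cells and 4.80 ± 0.616 TPM in undifferentiated cells, and its relative MMEL1 averaged 4.22 ± 0.821 TPM in differentiated cells and 1.33 ± 0.268 TPM in undifferentiated cells (SD, n = 4 each). CTSD, cathepsin D, averaged 63.5 ± 6.37 TPM in differentiated cells and 29.7 ± 1.67 TPM in undifferentiated cells (SD, n = 4 each; log2 fold change 1.07).

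**Figure D5:**
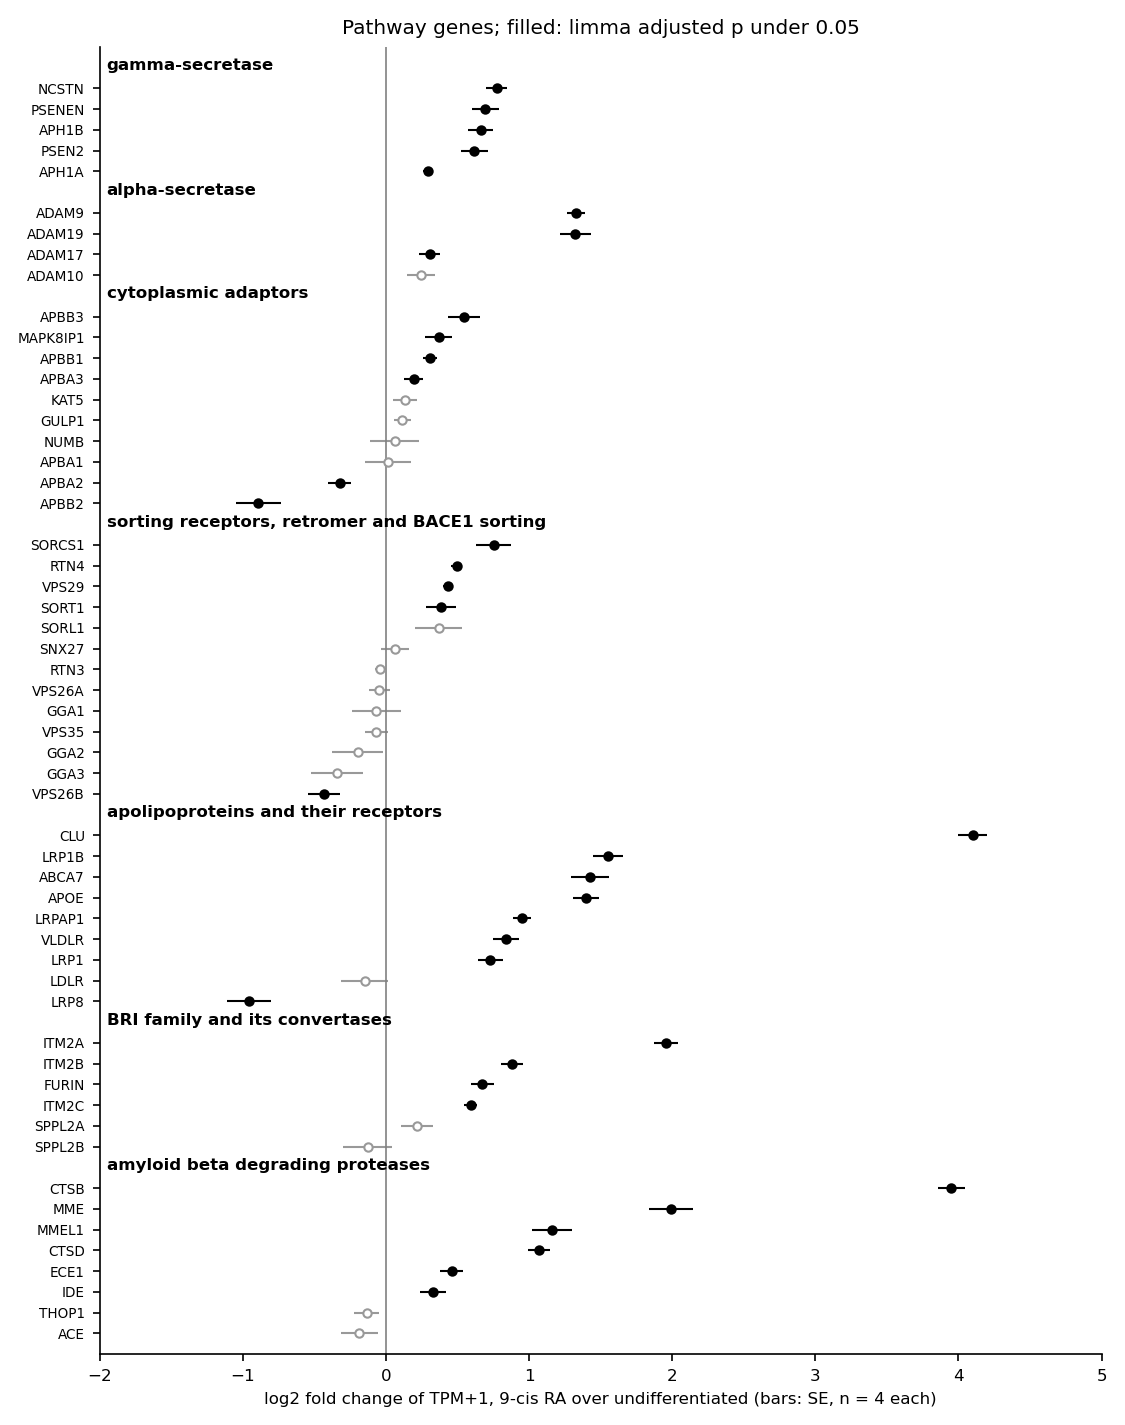
Log2 fold change of TPM + 1, differentiated over undifferentiated, for each tested gene of the pathway lists, with bars of 1 SE (n = 4 each). Filled points passed limma's adjusted p of 0.05. CLU (4.10) and CTSB (3.95) lie farthest to the right, the 5 gamma-secretase genes lie above 0, and LRP8 (-0.96) and APBB2 (-0.89) lie farthest to the left.

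The 5 tested genes whose pattern over the 8 libraries was most like that of APP were EPHA2, TRAM1, CMTM6, FUT11 and RIT1, with root mean square differences from APP of 0.02 to 0.04 on the log2 scale after each gene's own mean was removed. Their log2 fold changes were 1.13, 1.06, 1.12, 1.17 and 1.08 in that order, against 1.11 for APP. They are the closest of 17077 genes by this measure, which was applied to the libraries that also gave the group difference, and no test was made.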

How the data were processed

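Total RNA was extracted from SH-SY5Y cells with RNeasy columns and made into libraries with Illumina's stranded mRNA kit, per the labels' protocols. The authors deposited TPM for 194993 Ensembl transcripts in 8 libraries, whose sums are 1000000 each, so the number of reads is unknown and intervals for counting error are not given. FastQC 0.11.2, Salmon and genome build GRCh37 are named in the submitters' processing notes, while the version of Salmon, its annotation and its use of strand are not stated there.

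Transcripts were matched to GENCODE 29 (GRCh38) by identifier without version (180930, or 92.8%, matched), which gave names, gene membership, exons and the positions and bases printed, all on GRCh38. TPM were summed per gene. limma 3.58.1 in R 4.3.3 (lmFit, eBayes with intensity trend) was run on log2(TPM + 1) of the 17077 genes that averaged at least 1 TPM, with Benjamini-Hochberg adjustment over all of them. Coding isoforms (transcripts with the same coding intervals, summed) were tested as arcsine square root shares in genes with 5 coding TPM or more in each group, at mean shares of 10% to 90%. The Kunitz exon share was tested by exact permutation over libraries with scipy 1.17.1. The scripts were tested on simulated data.

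The genes and lists were chosen with earlier results of these data known. The text names all 10 genes, APP transcripts with a mean of 1 TPM or a share of 1% or more, transcripts of the other genes with a share of 10% or more, up to 4 called genes with the largest change from each pathway list, the counted gamma- and alpha-secretase genes (1 gamma-secretase gene is not reported here), and the 5 genes most like APP. Other genes are named where a marker list or an overlap calls for them. Alternatives were other pseudocounts, filters and scalings, coding transcripts alone, no trend, lane 8 alone and leaving out each replicate.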

Additional observations from a re-analysis of the deposited data

Results flagged for a closer look

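In 16 of 142 groups of 4 libraries checked, 1 library lay outside the other 3 by a gap above Dixon's 95% critical value. Chance alone flags about 1 in 20 independent groups. These groups are not independent, since genes, their transcripts and their shares come from the same libraries, so the 16 cannot be weighed against that rate. Differentiated replicate 22 accounted for 10 of the 16. Among genes, it had MAPK8IP1 at 19.5 TPM (others 15.4 to 16.0) and CTSB at 622 TPM (others 802 to 832). It also had MME at 15.7 TPM (others 24.0 to 25.6) and CTSD at 72.9 TPM (others 59.6 to 61.8). Among transcripts, the same library had APLP2-202 at 142 TPM (others 113 to 115), APP-202 at 0.666 TPM (others 46.4 to 48.3), APP-203 at 68.5 TPM (others 0 to 3.32) and ITM2B-202 at 195 TPM (others 147 to 155). Its share of coding APP TPM with exon 2 was 80.3% (others 97.8% to 99.2%), and its share of coding APLP2 TPM with exon 7 was 73.6% (others 61.2% to 63.0%).

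The other 6 lay in 4 libraries. Differentiated replicate 21 had APP-207 at 3.15 TPM while the others were at 0, and an APP exon 15 share of 98.6% (others 99.4% to 99.6%). Undifferentiated replicate 18 had LRP8 at 29.9 TPM (others 25.1 to 25.9) and APP-207 at 1.18 TPM (others 1.98 to 2.03). Undifferentiated replicate 19 had FURIN at 3.18 TPM (others 3.51 to 3.58). Undifferentiated replicate 20 had SORL1 at 5.90 TPM (others 5.38 to 5.39).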

How the results depend on the processing

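Under other settings, 141 values of the 10 genes kept their direction and side of the threshold, 6 lost the call, 3 gained it and 2 changed sign, both for BACE1, at -0.00581 after median-of-ratios scaling and -0.014 after quantile normalization. Of the other named pathway genes 450 values stayed, 15 lost the call, 3 gained it and 1 changed sign, APBA3 at -0.0256 after quantile normalization. Genes called lower numbered 4461 after median-of-ratios scaling, 5061 after quantile normalization and 1886 within lane 8, against 2970, and pathway genes called lower 8 and 10 under those scalings, against 3. Of the 10 genes, 0 were called lower with protein-coding transcripts alone and 0 within lane 8, against 1 (APBA2) otherwise. Coding isoforms called numbered 17 within lane 8 and 121 to 477 when 1 replicate was left out, against 397. The APP-201 share difference was 13.5 points within lane 8 and 12.3 to 13.4 points with 1 replicate left out. The APLP2 Kunitz share difference was 1.89 points relative to all transcripts, against -3.38. Lane 8 and the settings without a replicate hold fewer libraries. Genes called numbered 7784 without replicate 20 and 9724 without replicate 22, against 8761 with all libraries. The cause of these changes was not tested. No paired analysis was possible because the groups share no replicate number. TPM keep no depth, which limits BACE2 and other values near 0, and lane 7 holds undifferentiated libraries only, so lane and group cannot be told apart there.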
